A study of Mus musculus with 9 samples.

Results

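The aminoacyl-tRNA synthetases are the enzymes that load each amino acid onto its transfer RNA. The genes described here were the rows of the gene count table whose gene name contains the words tRNA synthetase, without those named as pseudogenes. That gave 42 of 23317 genes, after 14 pseudogene rows were left out. By the cell compartment they serve, 19 are cytosolic enzymes or enzyme subunits, 17 are mitochondrial enzymes, and 2, Gars and Kars, supply both compartments from a single gene. The other 4 carry the words in their names but do not charge free transfer RNA in the cytosol or mitochondria as these enzymes do: the scaffold proteins Aimp1 and Aimp2, and the editing-domain proteins Aarsd1 and Prorsd1.

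A cell makes protein in its cytosol and, for the few proteins encoded by mitochondrial DNA, inside its mitochondria, and most amino acids have a separate nuclear-encoded synthetase for each place. The enzymes belong to a pair of unrelated catalytic folds, class I and class II, and several of the cytosolic ones are held with Aimp1 and Aimp2 in the multisynthetase complex. Many synthetase genes are targets of ATF4, the transcription factor of the integrated stress response that raises genes of amino acid supply. Haematopoietic stem cells, the blood-forming cells of the marrow, are known for a low rate of protein synthesis compared with their progeny.

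RNA was measured by low-input sequencing of polyadenylated RNA from 1500 sorted cells per library, in 9 libraries of 3 groups with 3 replicates each. The group oHSC_ABC held old haematopoietic stem cells with ABC294640, which the study used as an inhibitor of the lipid kinase SphK2. The group oHSC held old stem cells without it, and yHSC held young ones. All came from the bone marrow of wild-type mice, whose ages are given as 20 to 24 or 2 to 4 months and were assigned here to old and young by their wording. The sort markers, the dose, route and duration of ABC294640, and whether the replicates were separate animals are not stated in the sources used here. The p-values therefore reflect only the spread among libraries, which may be technical.

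Library totals ran from 16663445 to 20014106 counts in oHSC_ABC, from 16724971 to 20966585 in oHSC and from 19451019 to 23254115 in yHSC. Fewer genes had a count in the old libraries, 18383 to 18956 in oHSC_ABC and 18227 to 19182 in oHSC, against 20158 to 20285 in yHSC. Against the labelled cell type, the stem cell marker Fgd5 was near 0, at 0.3 to 0.563 CPM in oHSC_ABC, 0.334 to 1.09 CPM in oHSC and 1.2 to 1.44 CPM in yHSC, while Kit and Meis1 were expressed in every library. The granulocyte progenitor gene Mpo was at 15600 to 16100 CPM in oHSC_ABC, 16300 to 16600 CPM in oHSC and 11400 to 12200 CPM in yHSC. The Y-linked gene Ddx3y was at 31.5 to 41.9 CPM in oHSC_ABC, 35.1 to 44.6 CPM in oHSC and 0.688 to 1.23 CPM in yHSC, so that age and this difference in Y-linked RNA cannot be told apart. These marker levels are CPM, each gene's share of the library total. All other levels below are CPM of a library size scaled by TMM (trimmed mean of M-values, a scaling that centres most genes). In such bulk samples, fewer cells of a type and less RNA per cell cannot be told apart.

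All 42 genes passed the filter on low counts, so each was tested in every comparison, among 14227 genes. Levels between genes were compared as CPM per kilobase of exon. Cytosolic enzymes were mostly higher than mitochondrial ones, with a median level of 16.93 in oHSC_ABC, 16.96 in oHSC and 15.69 CPM per kb in yHSC, against 6.138, 6.247 and 5.515 CPM per kb for the mitochondrial enzymes in the same 3 groups. Among cytosolic enzymes Dars, which charges aspartate, was highest per length, at 103 in oHSC_ABC, 104.5 in oHSC and 83.45 CPM per kb in yHSC. Tarsl2, a second cytosolic threonine enzyme, was lowest, at 3.427, 4.122 and 3.711 CPM per kb in the same groups. Of the enzymes serving both compartments, Kars (lysine) had 118.5, 121.4 and 111.5 CPM per kb in oHSC_ABC, oHSC and yHSC, and Gars (glycine) 40.18, 40.07 and 31.52 CPM per kb.

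The mitochondrial leucine enzyme Lars2 stood far above all other members. Its level was 959.3 CPM per kb in oHSC_ABC, 1070 CPM per kb in oHSC and 1038 CPM per kb in yHSC, and it took 55.1% to 61.2% of all counts of the 42 genes in a library. By counts summed over the libraries it ranked 15 of 23317 genes, against rank 654 for Kars, the next of the 42. Of the 11160 words of 31 bases in all its annotated transcripts, 103 (0.923%) occur in transcripts of another gene. Of them, 0 occur in the 37 transcripts of the mitochondrial genome. These transcripts cover more sequence than the exons used for its level per length. This search finds only exact matches to annotated transcripts, not near matches or unannotated copies. Whether all reads counted for Lars2 come from its messenger RNA was not tested. Vars2, for mitochondrial valine, was the lowest mitochondrial enzyme per length, at 0.84, 0.8683 and 0.8628 CPM per kb in oHSC_ABC, oHSC and yHSC. Of the related proteins Aimp2 was highest, at 142, 137.8 and 133 CPM per kb in the same groups, and Prorsd1 lowest, at 36.99, 35.01 and 34.58 CPM per kb.

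**Figure D1:**
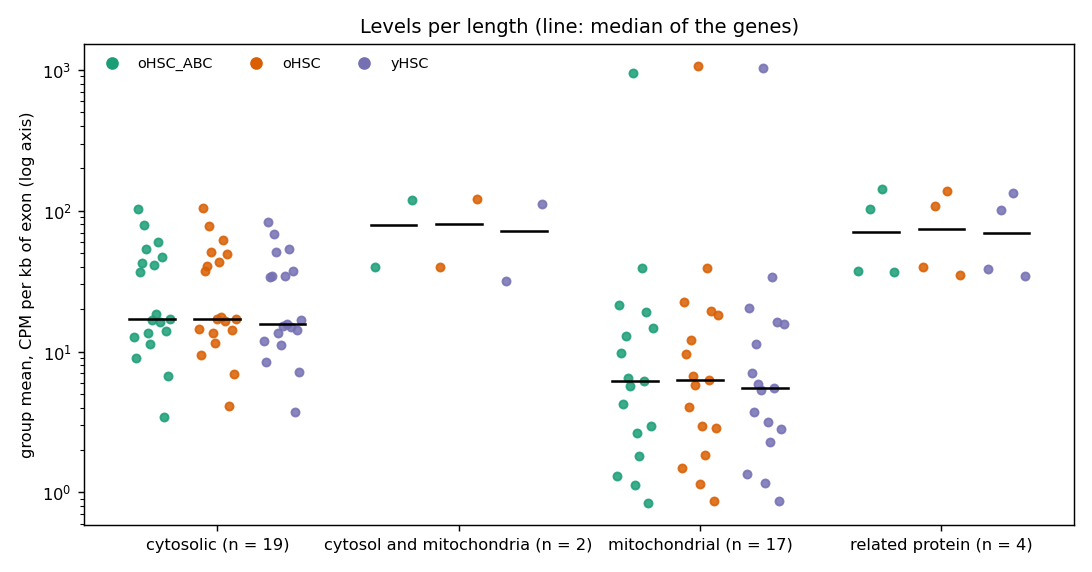
Level per length of the 42 genes by compartment (y axis, group mean in CPM per kb of exon, log axis; x axis, gene class), with 1 point per gene for oHSC_ABC, oHSC and yHSC and a line at the median of the genes. Lars2 is the single mitochondrial point at the top (959.3 to 1070 CPM per kb) in each group, and the mitochondrial medians (5.515 to 6.247) lie below the cytosolic ones (15.69 to 16.96).

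Old and young stem cells were compared first, asking how the charging enzymes differ with age. In oHSC 16 of the 42 genes rose relative to yHSC and 0 fell, and scaling to library totals alone gave 8 higher and 1 lower (Pars2). The risers were mostly cytosolic: 10 of 19 cytosolic enzymes and subunits, both dual-compartment enzymes, 4 of 17 mitochondrial enzymes and 0 of the 4 related proteins. The median log2 fold changes were closer, at 0.16 for the cytosolic and 0.12 for the mitochondrial enzymes, with 16 of 19 and 14 of 17 positive. A difference between the compartments was not tested. The changes were small, at 1.32-fold for Tars and less for most others, and the median log2 fold change of the 42 genes was 0.13 (0.05 with library totals), beside -0.03 over all genes tested. A gene was said to rise or fall where the quasi-likelihood test of edgeR gave an adjusted p under 0.05, corrected over the whole table by Benjamini-Hochberg. The 16 genes are 38.1% of the members, where 39.4% of all genes tested changed, 19.6% rising and 19.8% falling; with library totals alone, 1864 of all genes rose and 3930 fell, against 2788 and 2818 with TMM. The 3 oHSC libraries all lay above the 3 yHSC libraries for 19 of the 42 genes and all below for 1, where these shares are 22.8% and 25.6% of all genes tested, or 48.4% in either direction. The remaining 26 members did not pass, 20 of them positive and 6 negative.

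Among the cytosolic enzymes Tars, which charges threonine (chr15:11382301-11399665, minus strand), had 195, 206 and 191 CPM in oHSC, against 148, 150.4 and 151 CPM in yHSC. All oHSC libraries were above all yHSC libraries, and the 3 yHSC libraries lay close together. The fold was 1.32 (log2 fold change 0.40 ± 0.048, SE; n = 3 each; edgeR adjusted p = 1.51e-06), the smallest p of the 42 genes. Nars, for asparagine, had 122, 130.1 and 128 CPM in oHSC, against 99.8, 102 and 99.1 CPM in yHSC, with no overlap (fold 1.26; log2 0.34 ± 0.0482; edgeR adjusted p = 1.23e-05). Dars, the aspartate enzyme (chr1:128363707-128417368, minus strand), had 244, 267 and 260.3 CPM in oHSC, against 183, 222 and 212 CPM in yHSC. The yHSC libraries of Dars were spread, the first being the lowest, but still all below oHSC (fold 1.25; log2 0.33 ± 0.0593; edgeR adjusted p = 0.000208).

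Aars, the alanine enzyme (chr8:111033144-111057664, plus strand), had 85.8, 83.9 and 81.8 CPM in oHSC, against 73.9, 66 and 65 CPM in yHSC. The groups did not overlap (fold 1.23, log2 0.29 ± 0.0596, edgeR adjusted p = 0.000584). Of the words of 31 bases in its annotated transcripts, 14.4% also occur in transcripts of other genes, mostly Exosc6. Rars, the arginine enzyme of the multisynthetase complex, had 134, 134 and 126 CPM in oHSC, against 109, 113 and 115 CPM in yHSC (fold 1.17; log2 0.23 ± 0.0482; edgeR adjusted p = 0.000857). The phenylalanine enzyme is built of 2 kinds of subunit, and both rose. Farsb, the beta subunit, had 167, 175 and 176 CPM in oHSC, against 143, 161 and 147 CPM in yHSC (fold 1.15; log2 0.20 ± 0.0524; edgeR adjusted p = 0.00502). Farsa, the alpha subunit, rose 1.17-fold (edgeR adjusted p = 0.0103). Farsb shares 8.46% of its words with other genes, mostly Sgpp2 on the opposite strand, and the library kit does not mark strand.

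Mars1 (methionine), Qars (glutamine) and Eprs, whose protein joins the glutamate and proline enzymes, rose by 1.12, 1.12 and 1.10-fold, with edgeR adjusted p of 0.0442, 0.0403 and 0.0334. The remaining 9 cytosolic enzymes did not pass. Cars (cysteine), Sars (serine) and Tarsl2 had log2 fold changes of 0.17, 0.14 and 0.16, and Lars (leucine), Yars (tyrosine), Hars (histidine), Iars (isoleucine), Vars (valine) and Wars1 (tryptophan) lay between -0.04 and 0.04. Tarsl2 had 13.4, 13.6 and 12.4 CPM in oHSC, against 10.9, 12.2 and 12.4 CPM in yHSC, overlapping groups (log2 0.16 ± 0.0988; edgeR adjusted p = 0.224). By catalytic fold, 5 of 18 class I enzymes and 10 of 19 class II enzymes rose (1 and 7 with library totals alone), apart from Eprs, which holds both folds. Of the 10 listed proteins of the multisynthetase complex among the 42, 6 rose (Dars, Rars, Kars, Eprs, Qars and Mars1), of which Dars and Rars, 2 of 10, passed with library totals alone. Over all genes tested 19.6% rose.

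**Figure D2:**
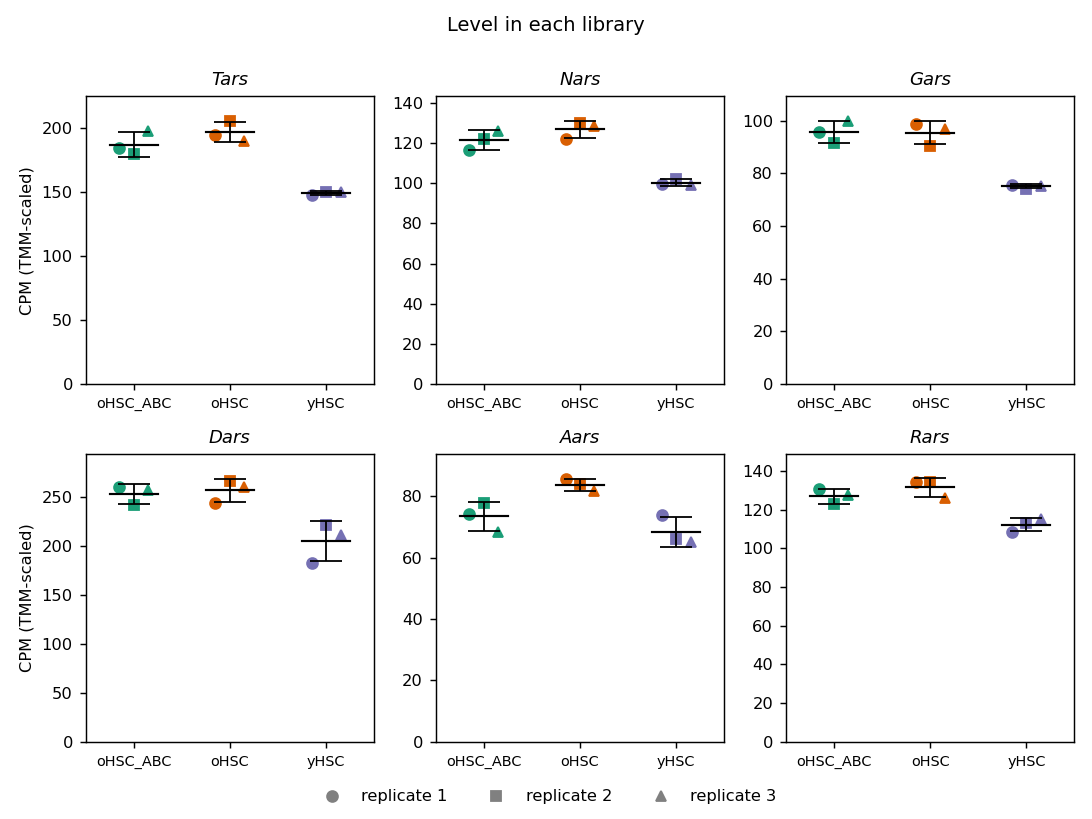
Levels in each library of 6 genes that rose in oHSC against yHSC with an edgeR adjusted p under 0.001 (y axis, CPM scaled by TMM, from 0; x axis, oHSC_ABC, oHSC and yHSC; bars, mean and SD; marker shape, replicate number). In each panel the 3 oHSC libraries lie above the 3 yHSC libraries, and for Aars the oHSC_ABC libraries (68.4 to 77.9) lie below oHSC (81.8 to 85.8).

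Promoter sequences show what some of these genes share that their selection did not use. RefSeq's promoter table (GRCm38.p6), which runs from 250 bases before to 50 bases after the start site, holds 32 of the 42 genes. It was searched on both strands for TGATGNAA, the core of the element bound by dimers of C/EBP proteins and ATF4, which reads TTNCATCA on the other strand. The motif is in 5 of the 32 genes (15.6%), against 3.6% of all 21229 promoters, or 4.13% of 17461 genes: Tars (chr15:11399609-11399908, minus strand), Gars (chr6:55037751-55038050, plus strand), Aars (chr8:111033592-111033891, plus strand), Iars (chr13:49681880-49682179, plus strand) and Yars (chr4:129189653-129189952, plus strand). These 5 are shown because they are all the genes found with the motif, whether or not they rose. Each is given 5′ to 3′ on the gene's strand, with the motif in capitals, which Aars holds at 2 places.
Tars: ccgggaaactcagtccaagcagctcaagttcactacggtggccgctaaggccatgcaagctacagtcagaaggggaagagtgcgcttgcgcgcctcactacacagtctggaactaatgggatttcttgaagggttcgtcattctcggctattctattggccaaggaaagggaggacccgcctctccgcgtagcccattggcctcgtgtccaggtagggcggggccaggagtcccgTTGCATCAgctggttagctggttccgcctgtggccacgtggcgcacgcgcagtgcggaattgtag
Gars: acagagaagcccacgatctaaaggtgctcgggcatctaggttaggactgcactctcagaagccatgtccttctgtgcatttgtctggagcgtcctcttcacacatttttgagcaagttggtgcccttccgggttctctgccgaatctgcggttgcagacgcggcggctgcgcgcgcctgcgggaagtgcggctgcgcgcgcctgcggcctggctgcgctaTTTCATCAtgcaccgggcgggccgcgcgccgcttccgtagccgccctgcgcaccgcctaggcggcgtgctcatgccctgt
Aars: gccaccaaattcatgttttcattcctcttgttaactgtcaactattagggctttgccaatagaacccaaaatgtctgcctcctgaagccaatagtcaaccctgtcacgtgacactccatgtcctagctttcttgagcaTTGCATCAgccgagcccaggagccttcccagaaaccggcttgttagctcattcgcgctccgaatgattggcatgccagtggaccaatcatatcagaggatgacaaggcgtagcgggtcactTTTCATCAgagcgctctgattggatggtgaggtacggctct
Iars: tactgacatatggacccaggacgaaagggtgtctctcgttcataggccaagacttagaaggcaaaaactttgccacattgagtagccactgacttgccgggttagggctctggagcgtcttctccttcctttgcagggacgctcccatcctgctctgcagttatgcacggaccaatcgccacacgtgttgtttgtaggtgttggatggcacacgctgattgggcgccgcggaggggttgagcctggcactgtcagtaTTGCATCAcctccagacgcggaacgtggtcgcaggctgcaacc
Yars: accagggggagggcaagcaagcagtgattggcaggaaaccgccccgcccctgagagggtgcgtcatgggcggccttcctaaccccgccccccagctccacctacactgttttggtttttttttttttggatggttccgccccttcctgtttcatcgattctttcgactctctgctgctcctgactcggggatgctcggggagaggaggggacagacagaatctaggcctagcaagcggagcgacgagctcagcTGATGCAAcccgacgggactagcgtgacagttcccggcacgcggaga
Tars, Gars and Aars rose in oHSC relative to yHSC; Iars (log2 fold change -0.00) and Yars (0.03) did not pass. Of the 27 genes with a promoter but no TGATGNAA, 10 rose, and of the 10 genes that it does not hold, 3 rose. The E-box CACGTG, the core bound by Myc and its relatives, is in 5 of the 32 genes (Aars, Ears2, Farsb, Iars and Tars), against 7.83% of all promoters and 8.91% of genes, and overlaps TGATGNAA in 0 of them. These are matches of letters in a window and were not measured as binding sites.

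Both enzymes shared by cytosol and mitochondria rose. Gars (chr6:55038007-55079500, plus strand) had 98.7, 90.5 and 96.9 CPM in oHSC, against 75.6, 74.2 and 75.3 CPM in yHSC, with no overlap (fold 1.27; log2 0.34 ± 0.0517; edgeR adjusted p = 2.3e-05). Kars had 271, 277 and 271 CPM in oHSC, against 265, 243 and 243 CPM in yHSC. Its groups stood apart by a small margin, since the first yHSC library lay near oHSC (fold 1.09; log2 0.12 ± 0.0443; edgeR adjusted p = 0.0323).

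Among the mitochondrial enzymes that rose, Tars2, the mitochondrial threonine enzyme, had 91.1, 80.8 and 80.2 CPM in oHSC, against 75.1, 70.8 and 67 CPM in yHSC (fold 1.18; log2 0.24 ± 0.0607; edgeR adjusted p = 0.00356). Rars2, for arginine, had 73.9, 77.2 and 68.2 CPM in oHSC, against 59.5, 66.2 and 63.6 CPM in yHSC (fold 1.16; log2 0.22 ± 0.0589; edgeR adjusted p = 0.00663). Neither of these overlapped between groups. Yars2, for tyrosine (chr16:16302965-16309640, plus strand), had 57.7, 55.7 and 58.2 CPM in oHSC, against 49.4, 49.9 and 49.9 CPM in yHSC (fold 1.15; log2 0.20 ± 0.0578; edgeR adjusted p = 0.00929).

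The other 13 mitochondrial enzymes did not pass. Lars2 had 4394, 4098 and 4012 CPM in oHSC, against 4186, 4055 and 3879 CPM in yHSC, with overlapping groups (log2 0.04 ± 0.0401; edgeR adjusted p = 0.394). Pars2, for proline, was the only member whose oHSC libraries all lay below yHSC, at 5.94, 5.98 and 5.02 CPM in oHSC, against 6.93, 7.31 and 6.63 CPM in yHSC, and it did not pass (log2 -0.29 ± 0.139; edgeR adjusted p = 0.1). Hars2, Sars2, Cars2, Ears2, Aars2, Iars2 and Fars2 had log2 fold changes of 0.10 to 0.19, and Wars2, Vars2, Mars2 and Nars2 of -0.08 to 0.02. Vars2 had 3.236, 4.067 and 4.224 CPM in oHSC, against 4.396, 3.237 and 3.821 CPM in yHSC, and its change was not detectable at this depth, with 55 to 106 counts in each library of these groups (log2 0.01 ± 0.174; edgeR adjusted p = 0.985). Of the related proteins, Aimp1, Aimp2, Aarsd1 and Prorsd1 had log2 fold changes of 0.11, 0.05, 0.04 and 0.02, with edgeR adjusted p of 0.117, 0.368, 0.604 and 0.851. Aarsd1 and Aimp2 share 42% and 29.5% of their words with other transcripts, which makes their counts uncertain. The same holds for the isoleucine enzymes Iars2 (23.6%, mostly with Rab3gap2) and Iars (14.7%, mostly with Gm4849).

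Cytosolic and mitochondrial enzymes were compared for 13 amino acids. Both enzymes of a pair rose in oHSC for 2 amino acids (threonine and arginine), the cytosolic enzyme alone passed for 3 (asparagine, alanine and methionine), the mitochondrial enzyme alone for 1 (tyrosine), and neither for 7. The difference between partners was not tested. Aars2, Nars2 and Mars2 had larger SE (0.16, 0.116 and 0.101) than Aars, Nars and Mars1 (0.0596, 0.0482 and 0.0615). A change of the same size was therefore harder to detect in these mitochondrial partners. For asparagine, Nars rose while Nars2 had 10.7, 12.4 and 14 CPM in oHSC, against 12.8, 14.8 and 11.7 CPM in yHSC (log2 -0.08 ± 0.116; edgeR adjusted p = 0.619). For alanine, Aars2 had 4.29, 4.69 and 5.94 CPM in oHSC, against 4.73, 4.07 and 4.83 CPM in yHSC (log2 0.12 ± 0.16; edgeR adjusted p = 0.572). Both mitochondrial partners overlapped between groups. In oHSC the cytosolic enzyme had the higher level per length in 10 of the 13 pairs, the exceptions being leucine, cysteine and tyrosine. The tyrosine pair was close in oHSC, at 16.94 CPM per kb for Yars and 18.16 for Yars2. Yars was the higher of the pair in oHSC_ABC (16.93 against 14.78) and in yHSC (16.63 against 15.79).

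**Figure D3:**
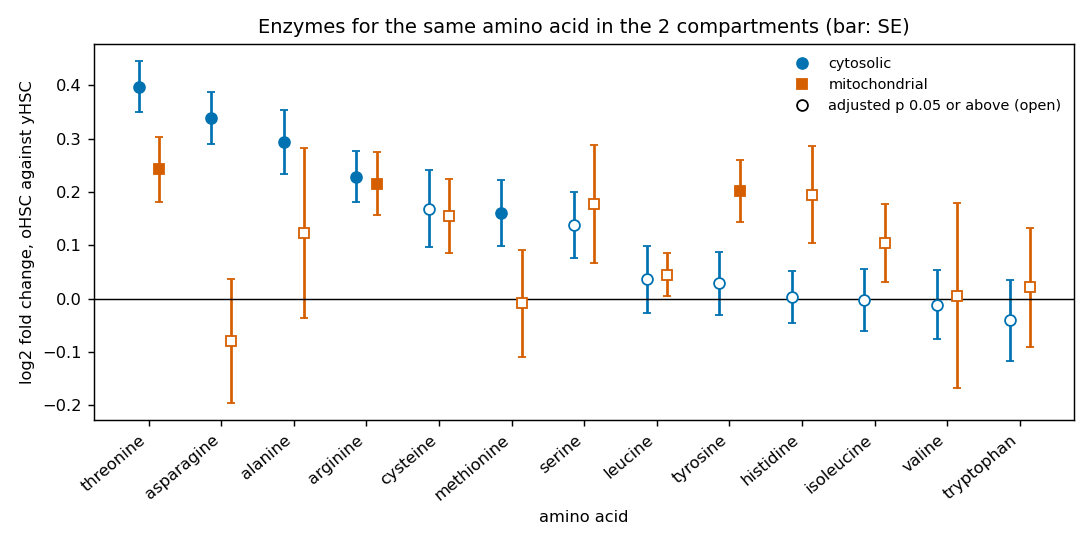
Log2 fold change, oHSC against yHSC (y axis; bars, SE), of the cytosolic (circle) and mitochondrial (square) enzyme for each of 13 amino acids (x axis), filled where the adjusted p is under 0.05. Both symbols are filled for threonine and arginine, and the tyrosine pair is filled for the mitochondrial enzyme alone; with library totals alone the Mars1, Rars2 and Yars2 calls ended.

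Summed over genes, the cytosolic enzymes made up 1750 to 1782 CPM in oHSC, against 1520 to 1553 CPM in yHSC, and all 17 mitochondrial enzymes 4463 to 4855 CPM in oHSC, against 4273 to 4587 CPM in yHSC, with overlapping groups. Most of that sum is Lars2, and without it, the mitochondrial enzymes made up 449.0 to 461.2 CPM in oHSC, against 393.7 to 409.9 CPM in yHSC. As an unscaled share of library counts, all 17 averaged 0.4547% in oHSC and 0.4631% in yHSC. With library totals alone the calls for Eprs, Farsa, Farsb, Kars, Mars1, Qars, Rars2 and Yars2 ended, and Aars, Dars, Gars, Nars, Rars, Tars and Tars2 passed under all 18 other settings tried. Leaving out 1 library ended the call for Farsa (without oHSC replicate 1, adjusted p 0.0573), for Kars (without yHSC replicate 2 or 3 or oHSC replicate 1, up to 0.0847), for Eprs (without yHSC replicate 3 or oHSC replicate 1 or 3, up to 0.0859), for Mars1 (without yHSC replicate 2 or 3 or oHSC replicate 1, up to 0.201) and for Qars (without yHSC replicate 2 or 3 or any oHSC replicate, up to 0.112).

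Other genes of amino acid supply and translation were read beside the enzymes, in a comparison where 19.6% of all genes tested rose and 19.8% fell. Of 28 tested genes of the ATF4 stress response, 13 rose in oHSC and 1 fell, with a median log2 fold change of 0.20. Atf4 itself had 314, 315 and 303 CPM in oHSC, against 256, 258 and 253 CPM in yHSC (log2 0.28 ± 0.0411; edgeR adjusted p = 1.62e-05). Cebpb, a C/EBP partner of ATF4, rose most clearly (log2 1.21 ± 0.0679; edgeR adjusted p = 1.37e-11), and Herpud1, an endoplasmic reticulum stress gene, and the serine synthesis enzymes Psph and Psat1 rose by 0.62, 0.58 and 0.53 on the log2 scale. The gene that fell was Eif2ak2 (log2 -0.70), a kinase of the initiation factor eIF2 that responds to double-stranded RNA.

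Of 11 elongation factors 3 rose in oHSC relative to yHSC and 0 fell: Gfm1 and Gfm2, which act in mitochondrial translation, by 0.46 and 0.24, and Eif5a by 0.30 on the log2 scale. Of 17 amino acid carriers 3 rose and 3 fell. Slc7a11, the cystine carrier, fell by 0.73, while Slc3a2, its heavy chain partner, and the glutamine carrier Slc38a1 rose by 0.23 and 0.16, and Slc38a9, a lysosomal carrier, fell by 0.30. Of 15 Myc and nucleolar growth genes 6 rose and 2 fell, with Odc1, Myc and Wdr43 up by 0.27, 0.27 and 0.26 and Fbl at -0.40. Of 14 genes of organelle and special charging routes 1 rose, Trnt1, which adds the CCA end to transfer RNA (log2 0.18; edgeR adjusted p = 0.00848).

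Markers of other cell types moved between the same groups. Granulocyte progenitor markers rose in 6 of 6 genes, summing to 45456 to 48049 CPM in oHSC, against 29700 to 33639 CPM in yHSC. Neutrophil markers rose in 6 of 10 (8163 to 9174 CPM in oHSC, against 5074 to 5233 CPM in yHSC), plasma cell markers in 4 of 7 tested (959 to 1045 CPM, against 405 to 451 CPM in yHSC), mitosis genes in 7 of 10 with 1 lower (1634 to 1663 CPM, against 1362 to 1393 CPM in yHSC) and T and NK cell markers in 1 of 2 tested (1731 to 1888 CPM, against 1323 to 1479 CPM in yHSC). Lower sums in oHSC were those of 12 stem cell markers (2 rose and 6 fell; 396 to 405 CPM, against 463 to 472 CPM in yHSC), of erythroid markers (1 rose and 7 of 9 fell; 382 to 384 CPM, against 833 to 878 CPM in yHSC), of megakaryocyte markers (4 of 6 fell; 225 to 253 CPM, against 451 to 492 CPM in yHSC) and of macrophage markers (4 of 6 fell; 63.0 to 66.4 CPM, against 85.9 to 101 CPM in yHSC). B cell markers, of which 1 of 4 tested fell, summed to 62.3 to 67.0 CPM in oHSC, against 67.3 to 74.3 CPM in yHSC. No listed marker in the table was at 0 in all libraries, and the part of these cells in the synthetase results was not tested.

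The inhibitor was examined by setting oHSC_ABC against oHSC. A single member changed: Yars2 fell. The other 41 genes did not pass, and the median log2 fold change of the 42 genes was -0.02, beside 0.00 over all genes tested. The count of 0 higher and 1 lower (2.38% of the members) stood where 0.766% of all genes tested rose and 0.429% fell, 1.19% in all. At an unadjusted p under 0.05 there were 4 members, Yars2, Lars2, Aars and Tarsl2, all lower in oHSC_ABC. The oHSC_ABC libraries lay all above oHSC for 1 of the 42 genes (Qars) and all below for 6, beside 8.34% and 7.13% of all genes tested, or 15.5% in either direction.

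Yars2 had 45.6, 44.1 and 50 CPM in oHSC_ABC, against 57.7, 55.7 and 58.2 CPM in oHSC. All oHSC_ABC libraries were below all oHSC libraries (fold 0.815; log2 -0.29 ± 0.059; edgeR adjusted p = 0.0123). Its exonic words are shared with no other transcript. Its cytosolic partner Yars had 50.1, 48.5 and 49.1 CPM in oHSC_ABC, against 49.4, 51.9 and 46.5 CPM in oHSC, with the groups overlapping (log2 -0.00 ± 0.06; edgeR adjusted p = 0.996). The Yars2 call ended without oHSC replicate 1 (adjusted p 0.0632), without oHSC_ABC replicate 1 (0.101) and without oHSC_ABC replicate 2 (0.114), with the fold change staying negative, and over all settings its adjusted p ran from 0.00161 to 0.114.

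Lars2, the most abundant member, had 3793, 3730.5 and 3683 CPM in oHSC_ABC, against 4394, 4098 and 4012 CPM in oHSC. The groups did not overlap, but the difference did not pass (fold 0.896; log2 -0.16 ± 0.0402; edgeR adjusted p = 0.0611). It passed in 9 of 17 other settings, among them those without oHSC replicate 3 (0.0357) and without yHSC replicate 1 (0.00577), and its adjusted p ran from 0.0013 to 0.34. Its cytosolic partner Lars had 46.2, 44.0 and 45.3 CPM in oHSC_ABC, against 41.8, 46.6 and 48.1 CPM in oHSC (log2 -0.01 ± 0.0637; edgeR adjusted p = 0.988).

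Aars had 74.2, 77.9 and 68.4 CPM in oHSC_ABC, against 85.8, 83.9 and 81.8 CPM in oHSC. Each oHSC_ABC library was lower than each oHSC library, without passing (log2 -0.19 ± 0.0601; edgeR adjusted p = 0.193); without yHSC replicate 1 it did pass (0.0419; range over settings 0.0419 to 0.547). Tarsl2 had 11, 11.8 and 9.97 CPM in oHSC_ABC, against 13.4, 13.6 and 12.4 CPM in oHSC, which also stood apart without passing (log2 -0.27 ± 0.102; edgeR adjusted p = 0.344). The genes that rose most clearly in oHSC relative to yHSC had small differences here: Tars -0.07, Nars -0.06, Gars 0.01 and Dars -0.02 on the log2 scale. Kars and Vars2, at the ends of their classes per length, had log2 fold changes of -0.04 ± 0.0444 and -0.04 ± 0.18, Aimp2 had 0.04 ± 0.0434 and Prorsd1 0.08 ± 0.0713.

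**Figure D4:**
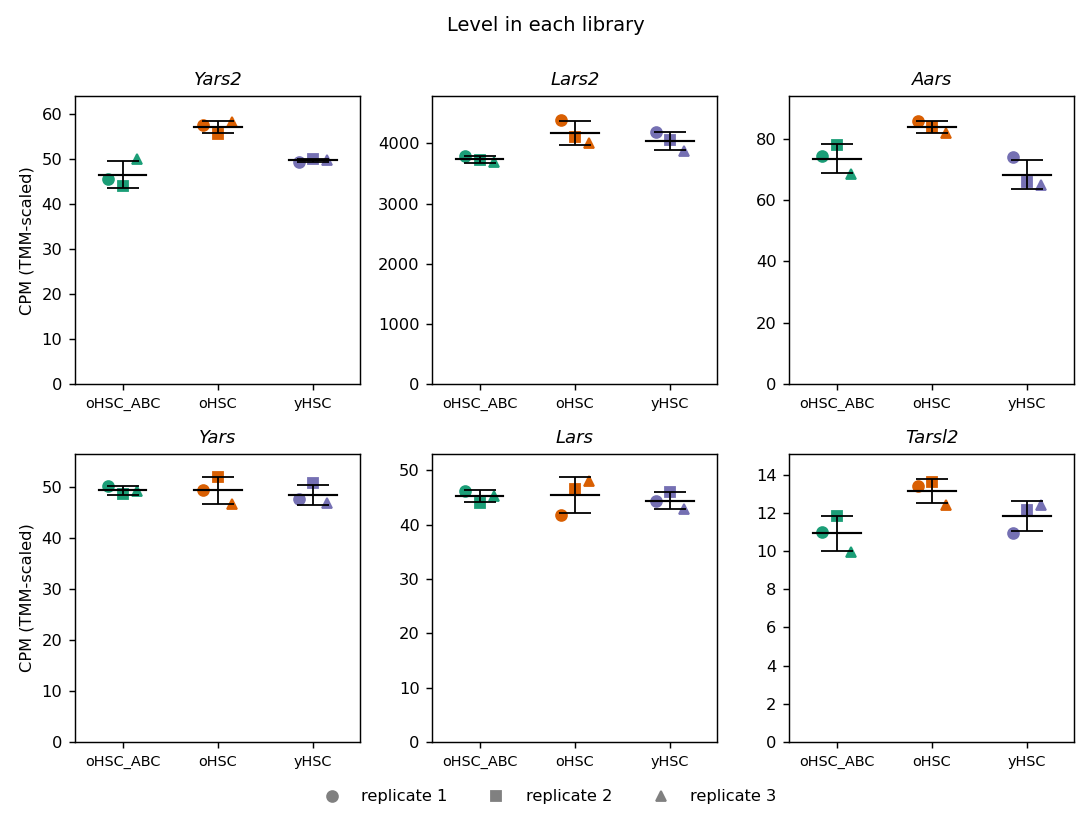
Levels in each library of the 4 members with an unadjusted p under 0.05 in oHSC_ABC against oHSC (Yars2, Lars2, Aars, Tarsl2) and of the cytosolic partners Yars and Lars (y axis, CPM scaled by TMM, from 0; x axis, oHSC_ABC, oHSC and yHSC; bars, mean and SD). For those 4 the oHSC_ABC libraries all lie below oHSC, with Yars2 at 44.1 to 50 CPM in oHSC_ABC and 55.7 to 58.2 CPM in oHSC, while Yars and Lars overlap.

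Among the other lists, the 28 tested ATF4 genes held 0 that rose and 1 that fell in oHSC_ABC relative to oHSC: Cebpb had 49.4, 51.0 and 48.0 CPM in oHSC_ABC, against 80.3, 70.2 and 74.6 CPM in oHSC (log2 -0.60 ± 0.0666; edgeR adjusted p = 4.14e-05). Atf4 did not pass (log2 -0.06; edgeR adjusted p = 0.775). The elongation factors, carriers, growth genes and special charging routes had 0 called in either direction. Summed marker levels in oHSC_ABC and oHSC were 8642 to 8790 and 8163 to 9174 CPM for neutrophils, 44812 to 45884 and 45456 to 48049 CPM for granulocyte progenitors, 909 to 934 and 959 to 1045 CPM for plasma cells, and 292 to 309 and 225 to 253 CPM for megakaryocytes. They were 428 to 429 and 382 to 384 CPM for erythroid cells, 1896 to 2064 and 1731 to 1888 CPM for T and NK cells, 1673 to 1704 and 1634 to 1663 CPM for mitosis, and 407 to 419 and 396 to 405 CPM for stem cell markers. They were 65.7 to 69.9 and 62.3 to 67.0 CPM for B cells, and 66.4 to 71.5 and 63.0 to 66.4 CPM for macrophages. Single erythroid and megakaryocyte markers (1 of 9 and 1 of 6) rose and 1 of 7 tested plasma cell markers fell in oHSC_ABC, and no other listed marker passed. Their part in the Yars2 result was not tested.

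**Figure D5:**
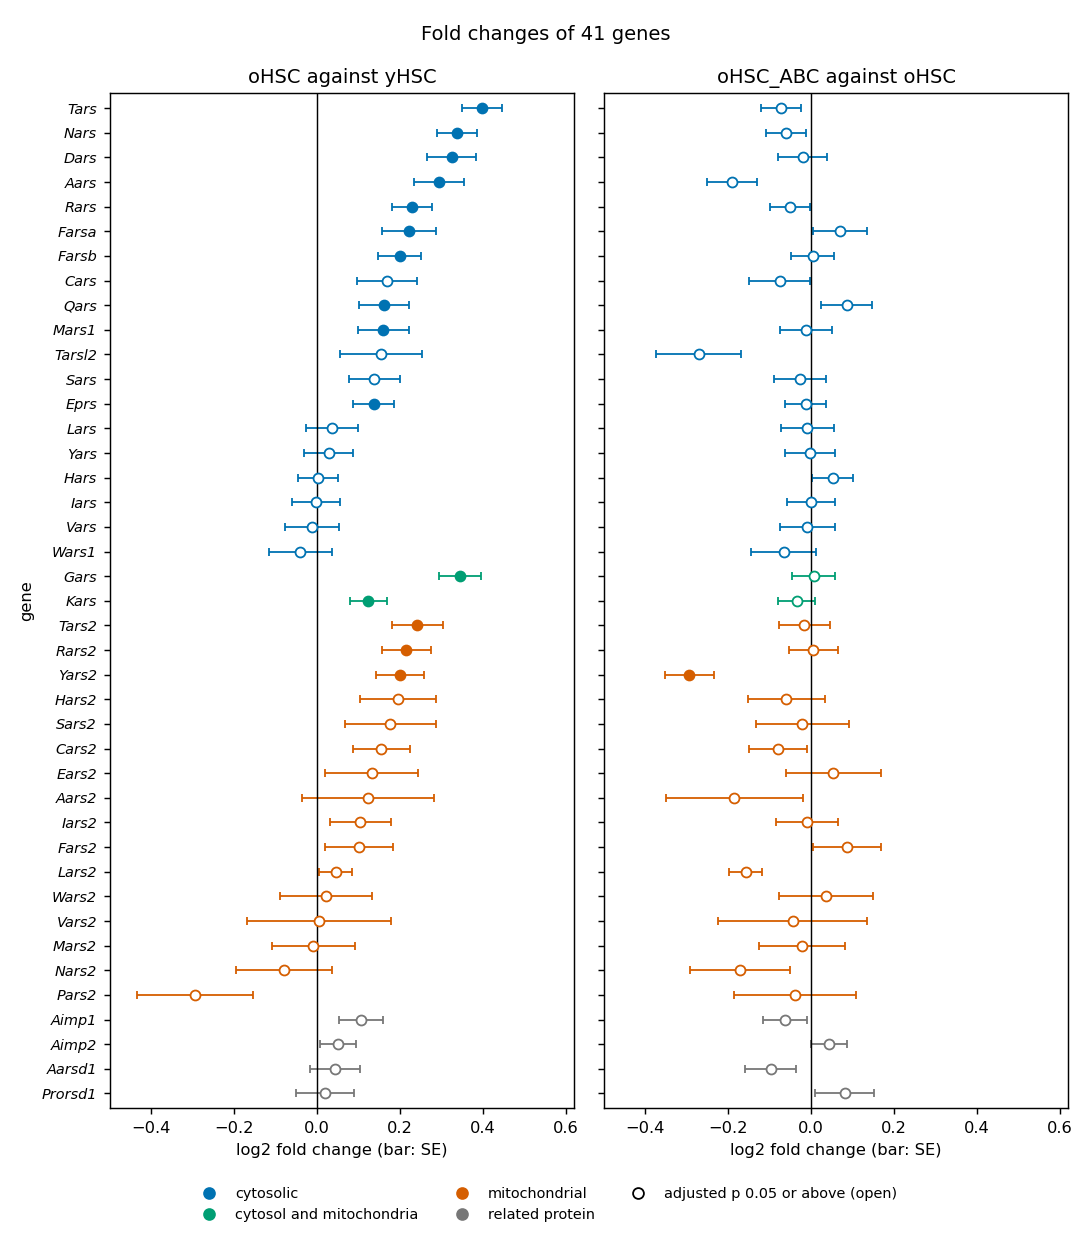
Log2 fold changes (x axis; bars, SE) of 41 genes (y axis), oHSC against yHSC on the left and oHSC_ABC against oHSC on the right, coloured by compartment and filled where the adjusted p is under 0.05. On the left 15 genes are filled, all positive (7 positive and 1 negative with library totals alone), and on the right Yars2 alone is filled, at -0.29.

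Old treated cells were last set against young cells. In oHSC_ABC 11 of the 42 genes rose relative to yHSC (26.2%) and 1, Lars2, fell (2.38%), where 37.6% of all genes tested changed, 19.1% rising and 18.5% falling; with library totals alone 6 members rose and 6 fell, and the median of all genes shifted by -0.102 on the log2 scale. With that scaling 1581 of all genes rose and 3931 fell, against 2722 and 2633 with TMM. The risers were 7 cytosolic, 1 dual-compartment and 3 mitochondrial enzymes. The oHSC_ABC libraries lay all above yHSC for 17 of the 42 genes and all below for 1, beside 23.7% and 24.7% of all genes tested, or 48.4% in either direction. This comparison shares its yHSC libraries with oHSC against yHSC, and shares its oHSC_ABC libraries with oHSC_ABC against oHSC.

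Gars had 95.6, 91.4 and 99.9 CPM in oHSC_ABC, against 74.2 to 75.6 CPM in yHSC (fold 1.28; log2 0.35 ± 0.0517; edgeR adjusted p = 2.19e-05). Tars had 184, 179.9 and 198 CPM in oHSC_ABC, against 148 to 151 CPM in yHSC (fold 1.25; log2 0.32 ± 0.0481; edgeR adjusted p = 2.26e-05). Neither of these overlapped yHSC. Nars had 117, 122 and 126 CPM in oHSC_ABC, against 99.1 to 102 CPM in yHSC (log2 0.28 ± 0.0483; edgeR adjusted p = 0.000144). Dars had 260.3, 242 and 258 CPM in oHSC_ABC, against 183 to 222 CPM in yHSC (log2 0.30 ± 0.0594; edgeR adjusted p = 0.000436). Farsa, the alpha subunit of the phenylalanine enzyme, had 73.3, 80.7 and 77.6 CPM in oHSC_ABC, against 69.9, 59.0 and 60.0 CPM in yHSC (log2 0.29 ± 0.0649; edgeR adjusted p = 0.00143). These 5 genes passed under every other setting tried.

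Qars, Tars2, Rars2, Farsb and Rars also rose in oHSC_ABC relative to yHSC, by 0.25, 0.23, 0.22, 0.20 and 0.18 on the log2 scale. All 5 calls ended with library totals alone (adjusted p 0.0611, 0.109, 0.136, 0.143 and 0.244 in the same order), and that for Rars also with a filter of at least 5 CPM in 3 libraries. Lars2 fell, with 3793, 3730.5 and 3683 CPM in oHSC_ABC, against 4186, 4055 and 3879 CPM in yHSC (fold 0.925; log2 -0.11 ± 0.0401; edgeR adjusted p = 0.0317). That call ended in 8 of 17 other settings, with adjusted p up to 0.156, among them those without yHSC replicate 1 or 2, oHSC replicate 3 or any oHSC_ABC replicate (up to 0.124). Yars2 and Aars did not pass in this comparison (log2 -0.09 and 0.10; edgeR adjusted p = 0.223 and 0.188). Among the other lists in oHSC_ABC relative to yHSC, 12 of 28 ATF4 genes rose and 3 fell, 2 of 11 elongation factors rose and 1 fell, 2 of 17 carriers rose and 3 fell, 4 of 15 growth genes rose and 3 fell, and 2 of 14 special charging genes, Sepsecs and Qrsl1, rose. Markers in oHSC_ABC relative to yHSC rose in 6 of 6 granulocyte progenitor, 6 of 10 neutrophil and 8 of 10 mitosis genes, in 1 of 4 tested B cell and 1 of 2 tested T and NK cell genes, and in 4 of 7 tested plasma cell genes with 1 lower. They fell in 7 of 9 erythroid genes with 1 higher, 4 of 6 megakaryocyte genes, 5 of 6 macrophage genes, and 5 of 12 stem cell genes with 2 higher. The sums of these lists are given above, and their part in these results was not tested.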

How the data were processed

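Counts were taken from the deposited table, which holds expected counts per gene and library: 56% of the non-zero values are whole, and all were rounded. Per the submitters' processing notes the authors used the mm10 build, HTSeq 0.10.0, STAR 2.6.1d, Trim Galore 0.6.2 and edgeR 3.24.3; what made counts fractional is not stated in the sources used here. Testing used edgeR 4.0.16 under R 4.3.3 (TMM scaling, default filter by group, quasi-likelihood test, all 9 libraries in 1 fit, Benjamini-Hochberg over 14227 genes, threshold 0.05). On simulated data for oHSC against yHSC (13906 genes), the test recovered 98 of 100 genes changed by 0.5 on the log2 scale. It recovered 100 of 100 changed by 1, with 9 false calls. No member changed by as much as 0.5 in any comparison, so recovery at the size of the members' changes was not tested. Coordinates and exon lengths are from GENCODE release M21 (GRCm38), to which 23289 of the table's identifiers matched; promoters are from RefSeq, GRCm38.p6. Alternatives were DESeq2 1.42.0, other scalings and filters, thinning, a replicate block and leaving out libraries.

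Full values were given for the members of smallest p past the threshold in each comparison (up to 10, 8 and 6), for the highest and lowest member per length in each class and for the partners of a named enzyme, and from other lists for up to 4 genes of smallest p. Others with an unadjusted p under 0.05 for the inhibitor, and Pars2, Atf4, Eif2ak2, Sepsecs and Qrsl1, were named after their values were seen. The members, lists, markers and tests were chosen with earlier results of these data known. The values of 1 member are not reported here. Library totals of 16663445 to 23254115 counts limit precision for genes of few counts, and reads without molecular identifiers are not independent molecules.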

Additional observations from a re-analysis of the deposited data

How the results depend on the processing

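Of the 16 members called in oHSC against yHSC, 8 were called under all 18 other settings, and no called member changed sign in any comparison. With library totals alone in oHSC against yHSC, 8 members rose and 1 fell; of these 5 risers were cytosolic, and 2 risers and the 1 that fell were mitochondrial. Without a filter on low counts 7 mitochondrial enzymes rose. In oHSC_ABC against oHSC, 2 members fell, both mitochondrial (Yars2 and Lars2), with RLE size factors, library totals alone, DESeq2, no filter, a filter of at least 5 CPM in 3 libraries, or the 2 groups alone. In oHSC_ABC against yHSC, library totals alone gave 6 higher and 6 lower, of which 4 and 1 were cytosolic and 1 and 4 mitochondrial. With DESeq2 or without a filter 0 members fell, and 3, all mitochondrial, fell with the filter of at least 5 CPM. The cause was not tested. Leaving Lars2 out of the table, a setting chosen after seeing the data, also gave 0 lower. That follows from its removal, since Lars2 was the only member called lower.

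Leaving out 1 library at a time gave 12 to 18 higher and 0 lower in oHSC against yHSC (cytosolic 7 to 11, mitochondrial 4 to 5). It gave 0 higher and 0 to 3 lower in oHSC_ABC against oHSC (cytosolic 0 to 1, mitochondrial 0 to 2). It gave 11 to 14 higher and 0 to 1 lower in oHSC_ABC against yHSC (cytosolic 7 to 9 higher, mitochondrial 3 to 4 higher and 0 to 1 lower). Over all genes, oHSC_ABC against oHSC gave 170 calls, against 333 without a filter and 260 with the 2 groups alone. Leaving out a library gave 286 without yHSC replicate 1, 91 and 77 without oHSC replicates 1 and 2, and 69 and 48 without oHSC_ABC replicates 1 and 2.

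No pairing by replicate number was seen: same-numbered libraries of different groups had correlations of their deviations from -0.123 to 0.159 (9 pairs), and other pairs from -0.136 to 0.115. With 3 libraries per group, these correlations cannot exclude a shared animal or batch. With the replicate block, 16 members rose and 0 fell in oHSC against yHSC, 2 fell in oHSC_ABC against oHSC, both mitochondrial, and 11 rose and 1 fell in oHSC_ABC against yHSC. Depth limits the members of few counts, such as Vars2, Aars2 and Pars2.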
